A study of Mus musculus with 12 samples.

Results

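Vitamin A metabolism was followed through 7 genes, Rdh11, Rdh10, Rdh16, Rbp4, Dhrs3, Retsat and Bco1, in liver RNA sequencing of Apoe knockout mice. The rows carrying these 7 symbols were taken from a table of 54532 genes. Rdh11 was chosen because it was higher in the Rspo2-AAV livers, so its change is described here without a test. The other 6 genes were named for their function, with earlier results of these data known. Every library came from an Apoe knockout liver. One group of 6 had received Gfp-AAV, an adeno-associated virus carrying green fluorescent protein, and was labelled control 1 to 6. The other 6 had received Rspo2-AAV, which carries R-spondin 2, a secreted protein that amplifies Wnt signalling, and were labelled 1, 2, 4, 5, 6 and 7. Age, sex, virus dose, time after injection and the promoter in the vector were not given in the sources used here. The labels also do not say that each library is a separate animal, so the p-values measure the spread between these libraries.

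The liver takes up dietary vitamin A, stores it and releases it to the blood. Retinol circulates bound to retinol-binding protein 4 and transthyretin, and within the liver it is stored as retinyl esters, mostly in hepatic stellate cells. Short-chain dehydrogenases convert retinol and retinal into each other in both directions, and retinal is oxidised irreversibly to retinoic acid, the ligand of the RAR receptors. Provitamin A carotenoids enter the same pool when they are cleaved to retinal.

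The upstream sequences of Rdh11 and Bco1 are shown because these are the members whose control and Rspo2-AAV values did not overlap. For Rdh11, which was chosen for its rise, that lack of overlap is no finding. Both are RefSeq windows of 250 bases before an annotated start on GRCm38, written 5′ to 3′ along the gene's own strand. RefSeq windows were found for 6 of the 7 members; Rdh10 had no entry. The Rdh11 window, chr12:79190962-79191211 on the minus strand, lies before the start of the Rdh11-201 transcript and within an intron of the longer transcripts Rdh11-202 and Rdh11-203. The Bco1 window, chr8:117095615-117095864 on the plus strand, ends 11 bases inside the 5′ UTR exon of Bco1-201. Capitals mark matches to the E-box hexamer CACGTG, the CCAAT box, the TCF/LEF core CTTTGA and a direct repeat of AGGTCA with 1 base between the copies, on either strand.
Rdh11: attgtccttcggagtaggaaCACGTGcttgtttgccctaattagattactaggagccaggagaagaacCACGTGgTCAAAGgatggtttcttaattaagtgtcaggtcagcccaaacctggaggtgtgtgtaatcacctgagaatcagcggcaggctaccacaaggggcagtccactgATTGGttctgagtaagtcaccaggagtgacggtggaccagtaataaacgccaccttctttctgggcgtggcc
Bco1: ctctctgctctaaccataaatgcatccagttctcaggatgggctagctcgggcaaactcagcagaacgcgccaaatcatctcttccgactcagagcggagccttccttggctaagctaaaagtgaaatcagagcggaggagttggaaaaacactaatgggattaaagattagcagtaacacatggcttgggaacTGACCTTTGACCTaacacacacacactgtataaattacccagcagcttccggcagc

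The Rdh11 window held CACGTG, an E-box, at 230 and 182 bases before the start. This hexamer was present in 6.02% of the 32851 RefSeq windows of the same length. It also held CCAAT, read as ATTGG, which 33.8% of windows hold, and CTTTGA, the core recognised by TCF/LEF factors, which 13.8% hold. Upstream of Bco1, the direct repeat of AGGTCA with 1 base between the copies, a form recognised by nuclear receptors, stood in the reverse orientation, and it was found in 0.0335% of windows. The CTTTGA match of Bco1 lies inside that repeat. CTTTGA was found in windows of 5 of the 6 members, Rdh11, Bco1, Rdh16, Dhrs3 and Rbp4, and CCAAT in windows of Rdh11, Dhrs3 and Rbp4. Rdh11, Dhrs3 and Rbp4 each have more than 1 window, and the Dhrs3 matches to CTTTGA lie in overlapping windows. The shares are per window, so these counts by member cannot be set beside them. Matches on both strands are given for 10 patterns. TCACNTGA matched Rdh11 once (3.45% of windows), and AGGTCA matched Rdh11, Rdh16 and, within the repeat, Bco1 (14.0%). No member window matched CTTTGATC (0.801%). Nor did any match AGGTCA repeated with 4 bases (0.0152%) or 5 bases (0.00913%) between the copies, or AGTTCA repeated with 5 (0.0213%). A second Rdh11 window, which is not printed, held none of the 10.

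Libraries held between 14295644 and 22195576 reads assigned to genes. Rspo2 was 0 in all 6 controls and between 49.9 and 573 FPKM (fragments scaled to gene length and library size) in the Rspo2-AAV libraries. Several libraries stood apart. Control 3 (42.0 FPKM), Rspo2-AAV 1 (28.0) and Rspo2-AAV 2 (5.57) expressed Xist, which was under 1 FPKM in the other 9. The mitochondrial share of reads was 10.5% for Rspo2-AAV 2, against 3.53% to 5.89% elsewhere. The summed level of 7 pancreatic acinar markers reached 32703, 2740, 313 and 26.7 FPKM in Rspo2-AAV 4, 5, 6 and 7 in that order, and stayed under 1 in the other 8 libraries. Results are therefore also given for libraries numbered 1 to 3 and 4 to 7 separately, a division that earlier results of these data had shown. The labels do not call it a batch. Because the division was taken from these data, a call within numbers 4 to 7 is no independent support. In that set the pancreatic transcripts go with the group and cannot be told apart from it. The same holds for the 9 libraries with Xist under 1 FPKM, whose Rspo2-AAV libraries are numbers 4 to 7. Within numbers 1 to 3, Rspo2-AAV 1 and 2 expressed Xist, but of the controls only control 3 did. Xist can therefore not be fully told apart from the group there. The 6 hepatocyte markers, Alb among them, summed to between 19127 and 47670 FPKM in every library, and none was called different between the groups.

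Among the 6 members that were tested, Rdh16 was higher and Retsat and Bco1 were lower in the Rspo2-AAV livers, and Rdh10, Rbp4 and Dhrs3 did not pass the test. The test was limma on log2(FPKM + 0.5), applied to the 13447 genes that averaged 0.5 FPKM or more. P-values were adjusted over all of them by Benjamini-Hochberg, and a gene was called below 0.05. All 7 members passed the filter. Over all tested genes, 5.20% were called, 2.55% higher and 2.65% lower, and the groups did not overlap for 3.24%, 1.62% in each direction. Within numbers 4 to 7 these shares were 13.3% called (6.34% higher, 6.92% lower) and 28.9% without overlap (14.6% higher, 14.3% lower). Within numbers 1 to 3 they were 0% called and 22.7% without overlap (10.5% higher, 12.1% lower). Log2 changes are Rspo2-AAV minus control on the log2(FPKM + 0.5) scale, which understates the change of low genes. In bulk liver, fewer cells of a type and less RNA per cell cannot be told apart.

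**Figure D1:**
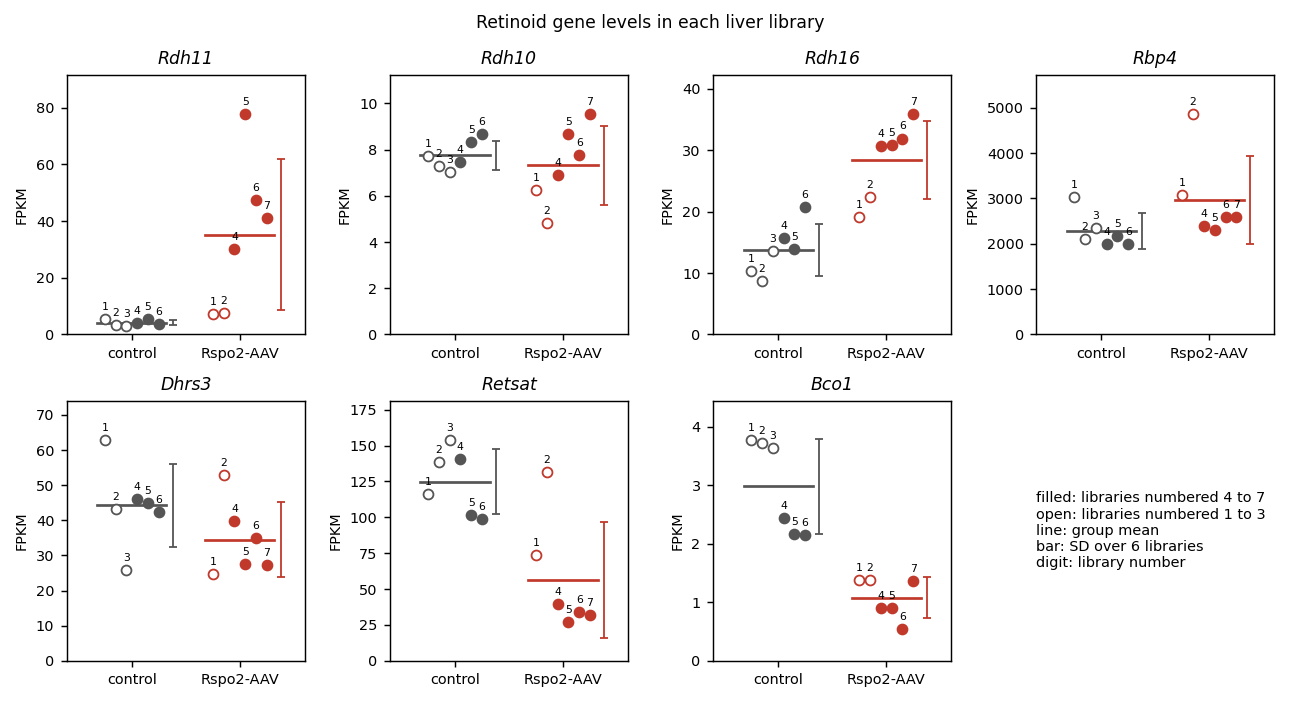
FPKM (vertical axes, linear, each starting at 0) of the 7 members in the 6 control and 6 Rspo2-AAV libraries. Each circle is a library with its number, open for numbers 1 to 3 and filled for 4 to 7, the line is the group mean and the bar its SD. Rdh11 is between 30.1 and 77.7 in Rspo2-AAV 4 to 7 and at most 7.67 in the other 8 libraries.

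Rbp4, the carrier that hepatocytes secrete with retinol, was among the 30 most abundant genes in every library. Its level ran from 1993 to 3041 FPKM in the controls, with a median of 2139, and from 2313 to 4857 FPKM in the Rspo2-AAV livers, with a median of 2589. The groups overlapped: control 1 lay above 4 of the Rspo2-AAV libraries, and control 3 lay above Rspo2-AAV 5. The mean was 2277 ± 396 FPKM (SD, n = 6) in controls and 2969 ± 963 (SD, n = 6) with Rspo2-AAV, a log2 change of 0.35 ± 0.20 (SE) that did not pass the test (limma adjusted p = 0.348). Within numbers 4 to 7 the groups did not overlap, at 2056 ± 99.2 FPKM (SD, n = 3) and 2469 ± 141 (SD, n = 4), but this gap did not pass the test either (log2 0.26, limma adjusted p = 0.103). The highest value, 4857 FPKM, was in Rspo2-AAV 2, the library with the high mitochondrial share.

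Rdh11, on chromosome 12, encodes a microsomal enzyme that reduces retinal to retinol. It read 5.44, 3.48, 3.00, 4.15, 5.45 and 3.68 FPKM in controls 1 to 6. In Rspo2-AAV 1, 2, 4, 5, 6 and 7 it read 7.24, 7.67, 30.1, 77.7, 47.4 and 41.0 FPKM. Every Rspo2-AAV library lay above every control, and Rspo2-AAV 1 and 2 lay far below the other 4. The group means were 4.20 ± 1.03 and 35.2 ± 26.7 FPKM (SD, n = 6 each), a log2 difference of 2.49 ± 0.51 (SE). Within numbers 4 to 7 the means were 4.43 ± 0.914 (SD, n = 3) and 49.0 ± 20.4 FPKM (SD, n = 4), a log2 difference of 3.26 ± 0.30. Within numbers 1 to 3 they were 3.97 ± 1.29 (SD, n = 3) and 7.45 ± 0.305 FPKM (SD, n = 2), a log2 difference of 0.87 ± 0.28. The difference between the number sets was not tested. Rspo2 itself was also lowest in Rspo2-AAV 1 and 2, at 122 and 49.9 FPKM, and between 265 and 573 FPKM in the other 4. The part of the Rspo2 level, of the Xist level or of the pancreatic transcripts in the Rdh11 difference was not tested.

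Rdh10, on chromosome 1, encodes an enzyme that oxidises retinol to retinal, the first step towards retinoic acid. Its level ran from 7.04 to 8.69 FPKM in the controls (median 7.60) and from 4.80 to 9.54 FPKM with Rspo2-AAV (median 7.34). The means were 7.76 ± 0.637 and 7.33 ± 1.71 FPKM (SD, n = 6 each), and the change of -0.10 ± 0.14 (SE) did not pass the test (limma adjusted p = 0.722). The lowest values were those of Rspo2-AAV 2 and 1, at 4.80 and 6.27 FPKM. The sign of this small change turned without Rspo2-AAV 2, to a log2 value of 0.0024.

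Rdh16, on chromosome 10, encodes a dehydrogenase that oxidises retinol and also acts on steroids. It ran from 8.62 to 20.8 FPKM in the controls (median 13.7) and from 19.1 to 35.8 FPKM with Rspo2-AAV (median 30.8). Only Rspo2-AAV 1 fell below the highest control, control 6. The means were 13.8 ± 4.27 and 28.5 ± 6.35 FPKM (SD, n = 6 each), and the rise of 1.04 ± 0.21 (SE) passed the test (limma adjusted p = 0.0138). The log2 change was 0.95 ± 0.14 within numbers 4 to 7 (limma adjusted p = 0.00714) and 0.93 ± 0.25 within numbers 1 to 3, where no gene of the 13447 passed the limma test at an adjusted p under 0.05 and 955 were under 0.05 unadjusted. In both sets the groups did not overlap. The call was lost without Rspo2-AAV 4 and 5, the libraries with the most pancreatic transcripts (log2 0.97, limma adjusted p = 0.0844), where 1.76% of all genes were called. Rdh16 belongs to a cluster of closely similar genes and shares 19655 bases with the same-strand pseudogene Rdh18-ps, so reads may have been divided among copies.

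Dhrs3, on chromosome 4, encodes an enzyme that reduces retinal back to retinol and is induced by retinoic acid. It ran from 26.0 to 62.7 FPKM in the controls (median 44.1) and from 24.6 to 52.9 FPKM with Rspo2-AAV (median 31.2). The groups overlapped at both ends, with control 3 among the low values and Rspo2-AAV 2 among the high ones. The means were 44.2 ± 11.7 and 34.5 ± 10.6 FPKM (SD, n = 6 each), a log2 change of -0.36 ± 0.22 (SE) that did not pass the test (limma adjusted p = 0.375). The values did not overlap within numbers 4 to 7, at 44.5 ± 2.01 (SD, n = 3) and 32.4 ± 6.04 FPKM (SD, n = 4), and the change of -0.47 ± 0.14 did not pass (limma adjusted p = 0.0692). In the 9 libraries with Xist under 1 FPKM it was called lower (log2 -0.56, limma adjusted p = 0.0431, where 12.8% of all genes were called). The Rspo2-AAV libraries of that set are again numbers 4 to 7, so this call is no independent support.

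Retsat, on chromosome 6, encodes retinol saturase, which converts retinol to dihydroretinol. Controls 1 to 6 read 116, 138, 154, 141, 102 and 98.8 FPKM. Rspo2-AAV 1, 2, 4, 5, 6 and 7 read 73.7, 132, 39.3, 26.8, 33.9 and 32.2 FPKM. Rspo2-AAV 1 and 4 to 7 lay below every control, while Rspo2-AAV 2 lay within the control range. The means were 124.9 ± 22.5 and 56.2 ± 40.5 FPKM (SD, n = 6 each), and the fall of -1.37 ± 0.33 (SE) passed the test (limma adjusted p = 0.0347). Within numbers 4 to 7 the change was -1.76 ± 0.17, from 113.8 ± 23.3 (SD, n = 3) to 33.0 ± 5.15 FPKM (SD, n = 4), and it passed (limma adjusted p = 0.00169). Within numbers 1 to 3 it was -0.46 (limma adjusted p = 0.805). The call over all 12 libraries did not hold when any 1 of control 2, 3, 4, 5 or 6 or of Rspo2-AAV 4, 5, 6 or 7 was left out (limma adjusted p from 0.0504 to 0.0841), nor without Rspo2-AAV 4 and 5 together (log2 -1.10, limma adjusted p = 0.155). It held without control 1, Rspo2-AAV 1 or Rspo2-AAV 2. The 4 adipocyte markers, a cell type that also expresses Retsat, summed to 0.962 to 77.9 FPKM in controls and 0.0574 to 27.1 FPKM with Rspo2-AAV, and their part in the Retsat difference was not tested.

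Bco1, on chromosome 8, encodes the oxygenase that cleaves beta-carotene to retinal. Controls 1 to 6 read 3.77, 3.73, 3.64, 2.44, 2.16 and 2.15 FPKM. Rspo2-AAV 1, 2, 4, 5, 6 and 7 read 1.39, 1.38, 0.907, 0.905, 0.540 and 1.37 FPKM. No library of one group reached the range of the other. The means were 2.98 ± 0.807 and 1.08 ± 0.352 FPKM (SD, n = 6 each), and the fall of -1.14 ± 0.19 (SE) passed the test (limma adjusted p = 0.00569). Each value rested on 20 to 174 reads. The groups were apart within both number sets, at -0.97 ± 0.19 in numbers 4 to 7 (limma adjusted p = 0.0192) and -1.16 in numbers 1 to 3 (limma adjusted p = 0.187). The call held without each of the 12 libraries in turn.

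**Figure D2:**
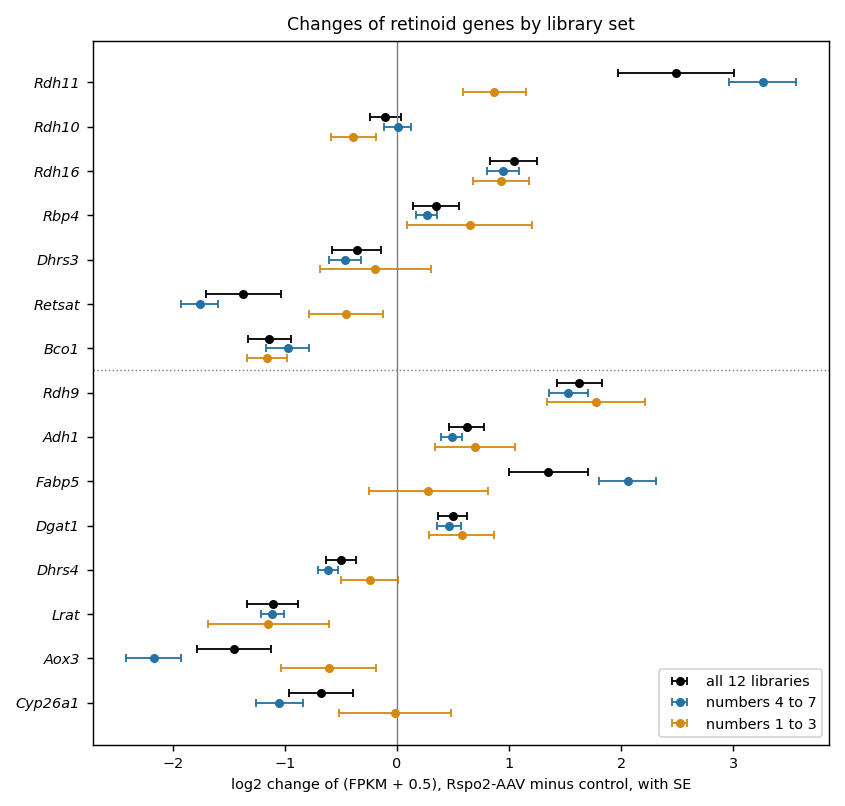
Log2 change of (FPKM + 0.5), Rspo2-AAV minus control, with SE (horizontal axis), for the 7 members above the dotted line and for 8 genes of the wider list below it, in all 12 libraries and within each number set. The Retsat points lie at -1.37, -1.76 and -0.46 for all libraries, numbers 4 to 7 and numbers 1 to 3, and the Rdh16 points lie at 1.04, 0.95 and 0.93.

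Within the groups the members did not move as one. With group means subtracted, Retsat ran against Rdh11 over the 12 libraries (Pearson r = -0.92) and against Rdh10 (r = -0.94), while Rdh11 and Rdh10 moved together (r = 0.82). Dhrs3 and Rdh11 showed little relation (r = -0.08). These correlations are descriptions over libraries that share their scaling and number sets.

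The genes whose log2 values ran most like Rdh11 over the 12 libraries were the processed pseudogene Gm5873 (r = 0.993), Cyp51 (0.993), Mvk (0.992), Msmo1 (0.989) and Nsdhl (0.988). The 4 protein-coding genes encode enzymes of cholesterol synthesis. Rdh11 was chosen for its rise, so genes with the same rise come first in this ranking by construction. Gm5873 averaged 0.464 FPKM in the controls, under the filter value of 0.5, and 6.07 FPKM with Rspo2-AAV. Cyp51 read 2.38 to 5.74 FPKM in the controls, 8.99 to 13.8 in Rspo2-AAV 1 and 2, and 47.4 to 154 in Rspo2-AAV 4 to 7. With group means subtracted, the closest were Acat2 (r = 0.993), Gm5873 (0.985), Acss2 (0.984), Mvk (0.982) and Cyp51 (0.982). The step between Rspo2-AAV 1 and 2 and Rspo2-AAV 4 to 7 remains after this subtraction. Part of the rise for which Rdh11 was chosen therefore shapes this ranking too. Acat2, for example, read 11.5 to 12.2 FPKM in Rspo2-AAV 1 and 2 and 41.7 to 79.0 in Rspo2-AAV 4 to 7. Acat2 and Acss2 encode enzymes that make acetoacetyl-CoA and acetyl-CoA.

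**Figure D3:**
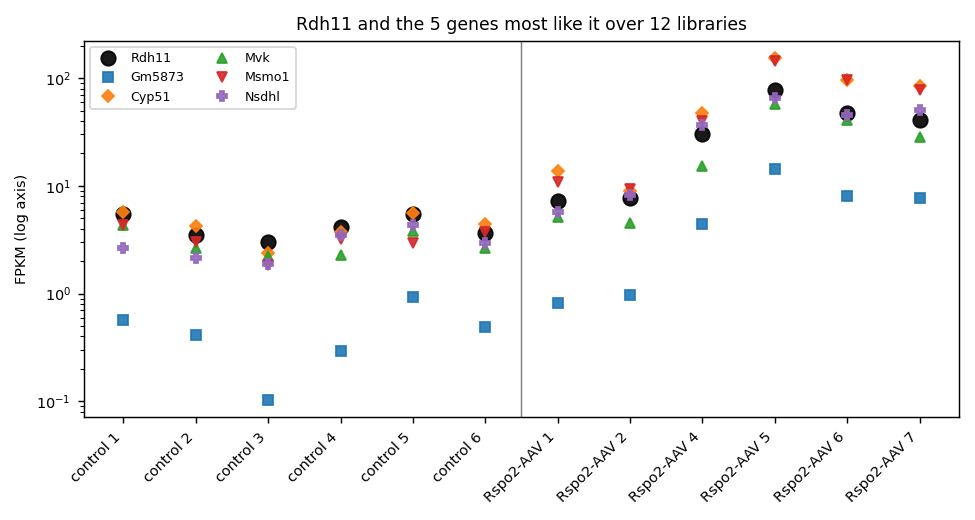
FPKM on a log axis of Rdh11 and the 5 genes most like it, in each of the 12 libraries (horizontal axis, controls left of the line). All 6 genes are highest in Rspo2-AAV 4 to 7, where Cyp51 reads 47.4 to 154, and Gm5873 in Rspo2-AAV 1 and 2 lies within or just above its control range.

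For the other members the closest genes by the same measure were as follows. Retsat ran with Acadl (r = 0.969), a mitochondrial acyl-CoA dehydrogenase, then Npm1, Csrp3, Ldb1 and Ifnar2 (0.968 to 0.956). Rdh16 ran with H2-Q1 (0.945), Mr1, Arsb, Abat and Lancl2 (down to 0.891). Rbp4 ran with Hmgb1 (0.984), Vamp8, Apoc4, Etfb and Fastk, and Dhrs3 with 2510002D24Rik (0.989), Bphl, Grhpr, Mgst1 and Prdx2. Rdh10 ran with Tbcel (0.973), Svip, Atg4c, Zadh2 and Phf6. Bco1 had looser neighbours, Fxyd5 (0.852), Ikbip, Serpinb6a, the processed pseudogene Gm7964 and Prpf18. Some of these genes were far apart in Rspo2-AAV 1 and 2. Etfb spanned 30.6 to 90.0 FPKM there and 23.0 to 25.5 in Rspo2-AAV 4 to 7, and Csrp3 10.2 to 29.5 against 4.33 to 6.75. Others, such as Lancl2 (2.41 to 2.48 against 3.25 to 4.03), were not. How far these r values rest on Rspo2-AAV 2, the library with the high mitochondrial share, was not tested.

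A wider list of 49 retinoid genes, with the 7 members left out, showed how far the rest of the pathway moved. Of its 33 tested genes, 4 were higher, 3 were lower and 26 did not pass, against 5.20% called over all genes. The median log2 change of the list was -0.11, beside 0.00 for all tested genes. In libraries 4 to 7, where 13.3% of all genes were called, 4 of the list were higher and 9 lower. Within numbers 1 to 3 none was called, as for all genes.

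Among the oxidoreductases, 2 of 12 tested genes were higher and 1 was lower, against 2.55% higher and 2.65% lower over all tested genes. Rdh9, a relative of Rdh16, went from 2.40 to 3.47 FPKM in controls to 6.29 to 17.6 FPKM with Rspo2-AAV, without overlap (log2 1.63 ± 0.20, limma adjusted p = 0.00156). Its locus overlaps that of Rdh16f1 over 16309 bases on the same strand, and Rdh16f1 was listed at 0 in every library. Adh1, an abundant alcohol dehydrogenase that also oxidises retinol, rose from 514 ± 102 to 779.7 ± 76.0 FPKM (SD, n = 6 each, log2 0.62 ± 0.16, limma adjusted p = 0.0380), without overlap. Dhrs4, a retinal reductase, fell from 81.8 ± 10.2 to 58.1 ± 10.2 FPKM (SD, n = 6 each, log2 -0.50 ± 0.13, limma adjusted p = 0.0460). The Adh1 call was lost in 7 and the Dhrs4 call in 9 of the 12 fits that leave out 1 library. Neither call held with no filter, with TPM scaling, with the replicate block, in numbers 1 to 3 or without Rspo2-AAV 4 and 5.

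The 2 tested genes of ester formation were called in opposite directions. Lrat, the acyltransferase of stellate cells that makes retinyl esters, fell from 4.64 ± 1.92 to 1.81 ± 0.515 FPKM (SD, n = 6 each) with no overlap (log2 -1.11 ± 0.23, limma adjusted p = 0.0151). The call held without each library in turn, but not with TPM scaling (limma adjusted p = 0.0685), without Rspo2-AAV 4 and 5 (limma adjusted p = 0.0659) or within numbers 1 to 3 (limma adjusted p = 0.733). Of 9 stellate cell markers, Lrat among them, 4 were lower (Lrat, Dcn, Colec11 and Rgs5), and their sum ran from 116 to 173 FPKM in the controls and from 62.3 to 106 FPKM with Rspo2-AAV. Over all tested genes 2.65% were called lower. None of the 9 stellate cell markers was at 0 in all libraries. The part of the stellate cell markers in the Lrat difference was not tested. Of 5 Kupffer cell markers, 3 were lower (Clec4f, Vsig4 and Marco), beside the same 2.65% over all tested genes. No tested marker of sinusoidal endothelium (4) or cholangiocytes (3) was called. Dgat1, which esterifies diacylglycerol and retinol, rose from 9.05 ± 1.73 to 12.9 ± 1.67 FPKM (SD, n = 6 each, log2 0.50 ± 0.13, limma adjusted p = 0.0465), a call lost in 11 of the 12 fits that leave out 1 library. It was also lost with no filter, with TPM scaling and with the replicate block. Nor did it hold in numbers 1 to 3, without Rspo2-AAV 4 and 5, or in the 9 libraries with Xist under 1 FPKM. Fabp5, which carries retinoic acid and fatty acids, rose from 4.31 ± 1.66 to 12.7 ± 6.13 FPKM (SD, n = 6 each, log2 1.35 ± 0.35, limma adjusted p = 0.0465), and this call was lost in 9 of the 12 fits that leave out 1 library. Rspo2-AAV 1, at 3.48 FPKM, lay within the control range of 2.49 to 7.23 FPKM. The Fabp5 call was also lost with no filter, with the replicate block and with a term for the number sets. Nor did it hold in numbers 1 to 3 (log2 0.28) or without Rspo2-AAV 4 and 5. Of 4 tested genes of transport, uptake and binding, Fabp5 alone was called, against 5.20% over all tested genes.

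Aox3, an aldehyde oxidase that can make retinoic acid, fell from 76.4 ± 33.2 to 25.6 ± 6.74 FPKM (SD, n = 6 each, log2 -1.46 ± 0.33, limma adjusted p = 0.0248). It was the only called gene of 5 tested in retinal oxidation, against 5.20% called over all tested genes. The Aox3 call was lost without control 2, 4, 5 or 6 or Rspo2-AAV 5 or 6. It was also lost with no filter, in numbers 1 to 3 and without Rspo2-AAV 4 and 5 together. Aldh1a1, the main cytosolic retinal dehydrogenase, read 261 ± 93.1 and 247 ± 46.1 FPKM (SD, n = 6 each, limma adjusted p = 0.990). Cyp26a1, which breaks down retinoic acid and is induced by it, read 24.6 ± 11.0 and 14.8 ± 5.39 FPKM (SD, n = 6 each), a log2 change of -0.68 ± 0.29 that did not pass (limma adjusted p = 0.191). Cyp26a1 was called lower within numbers 4 to 7 (log2 -1.05, limma adjusted p = 0.0190).

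Ttr, the transthyretin that binds Rbp4 in plasma, read 2636 ± 492 and 2576 ± 835 FPKM (SD, n = 6 each, limma adjusted p = 0.901). Stra6l, a liver receptor for Rbp4, read 21.65 ± 4.58 and 24.8 ± 8.33 FPKM (SD, n = 6 each, limma adjusted p = 0.716). No nuclear receptor of 5 tested was called, against 5.20% of all tested genes. Rara read 6.66 ± 0.872 and 7.42 ± 1.79 FPKM (SD, n = 6 each, limma adjusted p = 0.652). Rxra read 114 ± 13.4 and 105 ± 7.90 FPKM (SD, n = 6 each, limma adjusted p = 0.584).

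**Figure D4:**
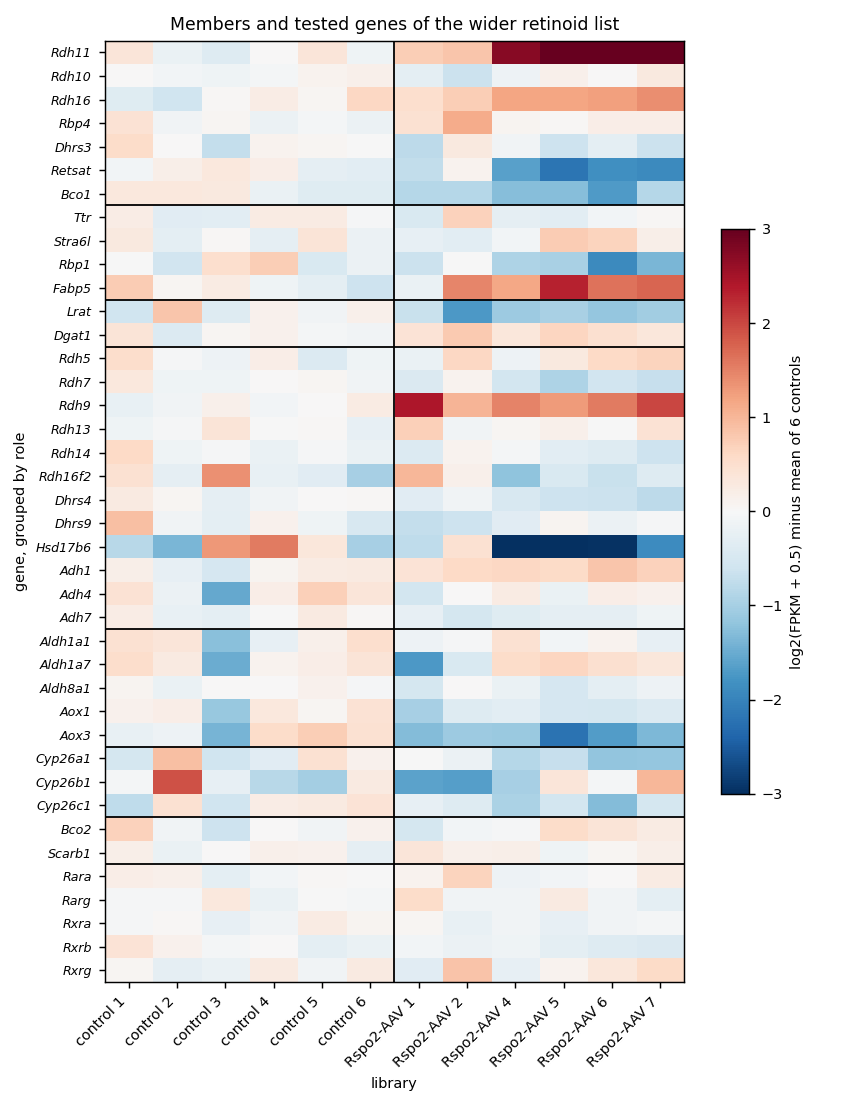
Log2(FPKM + 0.5) minus the mean of the 6 controls (colour, limited to 3 in either direction) for the 7 members and the 33 tested genes of the wider list (rows, grouped by role) in the 12 libraries (columns, controls left of the line). Rdh11 and Retsat change most in Rspo2-AAV 4 to 7, while Bco1 and Lrat are low in all 6 Rspo2-AAV libraries.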

How the data were processed

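Poly(A) RNA from Apoe knockout liver was sequenced in 12 libraries, 6 per group by the labels. The authors deposited 1 table of FPKM values per gene and library. The submitters' processing notes name HISAT2 2.0.5, featureCounts 1.5.0-p3, DESeq2 1.20.0 and the GRCm38 (mm10) build, with no roles. Per the labels' protocols the kit was either directional or not, so strand use was not known and overlapping genes are uncertain. FPKM times gene length, divided by a step fitted for each library, gave whole reads for 100.0% of values above 0 (within 0.01 reads). The library sizes that these steps imply were proportional to size factors computed from the recovered reads. The deposited values had therefore already been scaled between libraries.

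Groups were compared with limma 3.58.1 in R 4.3.3 (trend) on log2(FPKM + 0.5), for genes averaging 0.5 FPKM or more, with Benjamini-Hochberg adjustment over 13447 genes. On simulated data with 200 changed genes among 13447, the test found 75% of those changed 2-fold and 94% of those changed 4-fold, with 13 false among 182 calls. The simulated noise was independent for each gene and library, so deviations that libraries share are not covered. Alternatives covered the pseudocount, filter, scaling, limma-voom on the recovered reads, a replicate block, number sets and left-out libraries. Named genes are the 7 members, called genes of the wider list and 7 fixed others (Ttr, Lrat, Aldh1a1, Cyp26a1, Rara, Rxra and Stra6l), and the 5 genes most correlated with each member. Motifs were searched in RefSeq GRCm38.p6 windows, and some patterns searched are not reported here. Members and lists were chosen with earlier results of these data known.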

Additional observations from a re-analysis of the deposited data

Results flagged for a closer look

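Rbp4 in control 1 was 3041 FPKM, far from the other controls, the nearest of which was 2344 FPKM. Rbp4 in Rspo2-AAV 2 was 4857 FPKM, against 3077 FPKM in the nearest library of its group. Ttr in Rspo2-AAV 2 was 4180 FPKM, against 2675 FPKM in the nearest. In each of these cases 1 library lay far from the rest of its group of 6. The same library, Rspo2-AAV 2, had the highest mitochondrial share (10.5%) and the highest hepatocyte marker sum of its group (41959 FPKM). Of 41 groups screened, 3 were set apart in this way, and chance alone sets apart about 5%.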

How the results depend on the processing

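Over all tested genes, 343 were called higher and 356 lower. These counts were 195 and 216 with no filter, 197 and 183 with TPM scaling, 145 and 153 with the replicate block, 853 and 931 in numbers 4 to 7, 0 and 0 in numbers 1 to 3 (limma, 955 at an unadjusted p under 0.05), 117 and 120 without Rspo2-AAV 4 and 5, and 807 and 908 in the 9 libraries with Xist under 1 FPKM. Leaving out each library in turn gave 162 to 421 higher and 170 to 492 lower. The wider list went from 4 higher and 3 lower to 1 and 1 with no filter, 2 and 1 with TPM scaling, 1 and 2 with the replicate block, 9 lower in numbers 4 to 7 and in the 9 libraries, 0 and 0 in numbers 1 to 3, and 1 and 0 without Rspo2-AAV 4 and 5. Leaving out 1 library gave 1 to 4 higher and 1 to 6 lower, and a list median of -0.26 to -0.063, lowest without control 3.

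Rdh11 was 2.17 to 2.84 without each library and 0.87 in numbers 1 to 3. Rdh16 was not called in numbers 1 to 3 (0.93) or without Rspo2-AAV 4 and 5 (0.97). Retsat was not called with no filter (-1.37, limma adjusted p = 0.0799), with the replicate block (-1.20, limma adjusted p = 0.0904), in numbers 1 to 3 (-0.46) or without Rspo2-AAV 4 and 5 (-1.10), and ran from -1.66 to -1.21 without each library. Lrat was not called with the replicate block (-1.20, limma adjusted p = 0.106). Bco1 was not called in numbers 1 to 3 (-1.16), and Dhrs3 was called in the 9 libraries alone (-0.56). Rdh10 turned to 0.0049 in numbers 4 to 7, 0.048 in the 9 libraries and ran from -0.18 to 0.0024 without each library, above 0 without Rspo2-AAV 2. Aldh1a1 turned to -0.19 with the block, -0.028 with a number term, -0.080 in numbers 4 to 7, -0.082 when Rspo2-AAV 4 and 5 were left out and -0.19 in the 9 libraries, and without each library it ran from -0.24 to 0.11, below 0 without control 3, control 4, Rspo2-AAV 4 or Rspo2-AAV 6. Rara turned to -0.059 in the 9 libraries, Stra6l to -0.30 in numbers 1 to 3, and Ttr to 0.26 there and to 0.05 when Rspo2-AAV 4 and 5 were left out. Ttr ran from -0.21 to 0.017 over the fits lacking 1 library, above 0 without Rspo2-AAV 1. Number sets hold fewer libraries. For the other changes the cause was not tested.

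Libraries with the same number did not deviate together (5 pairs, r from -0.25 to 0.16, 1 over 0.1). Of these, 2 controls and 1 Rspo2-AAV library correlated best with their own number. The pairing was therefore not used. Values of Bco1 rest on as few as 20 reads.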

Other observations

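Rbp4 and its partner Ttr did not keep a fixed ratio. The ratio of Rbp4 to Ttr was 0.886 ± 0.197 (SD, n = 6) in controls and 1.17 ± 0.238 (SD, n = 6) with Rspo2-AAV. It was 1.01 to 1.13 in controls 1 to 3 and 0.649 to 0.789 in controls 4 to 6. In Rspo2-AAV 1 and 2 it was 1.64 and 1.16, and in Rspo2-AAV 4 to 7 it was 0.971 to 1.11. The ratio was formed after the values were seen, and it was not tested. Of the 9 wider-list genes called lower within numbers 4 to 7, Hsd17b6, a steroid and retinol dehydrogenase, had the largest change (log2 -3.33, limma adjusted p = 0.0181), from 45.7 ± 36.7 (SD, n = 3) to 3.62 ± 2.63 FPKM (SD, n = 4). Over all 12 libraries it did not pass (log2 -2.07, limma adjusted p = 0.128), and within numbers 1 to 3 the groups overlapped, at 33.2 ± 34.3 (SD, n = 3) and 28.5 ± 16.2 FPKM (SD, n = 2), with a log2 change of 0.15. Rdh7, a relative of Rdh16, went from 733 ± 42.0 (SD, n = 3) to 464 ± 54.9 FPKM (SD, n = 4) within numbers 4 to 7 (log2 -0.67, limma adjusted p = 0.0122), while Rdh16 rose there. Over all 12 libraries Rdh7 did not pass (log2 -0.51, limma adjusted p = 0.0971), and within numbers 1 to 3 its change was -0.19 (limma adjusted p = 0.933).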
